A study of Neurospora crassa with 10 samples.

Results

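Genes whose listed interval spans 700 bp or less were chosen from the 4 deposited lists of Neurospora crassa genes ranked by wild-type expression. They numbered 479 (4.92% of the listed genes), against 9250 longer genes, and every member was kept, since positions carry no low values to filter. The highest list held 3 of them, the 50-75% list 7, the 25-50% list 31 and the lowest list 438. The question addressed is how the few short genes of the highest list lie in the genome relative to those of the lowest list, by position, spacing, neighbours and distance to heterochromatin.

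The series followed newly made histone H3 on chromatin, pulled down through its FLAG tag and sequenced, in germinated conidia, the fungus's asexual spores. Its 10 libraries form 5 groups of 2: {delta}dim-2::hph, {delta}dim-5::bar, {delta}hda-1::hph and {delta}hpo::hph strains, and wild type, and all 5 groups carry Pvvd::hH3-3xFLAG::his-3+, a tagged histone driven by a light-induced promoter. The genotypes give mat a for {delta}dim-2, {delta}hda-1 and wild type, and an open mating type for {delta}dim-5 and {delta}hpo. Every strain was kept in darkness at 32 °C for 18 h, given 100 mM hydroxyurea for 3 h, lit at 465 nm for 2 min and fixed in 0.5% formaldehyde. No per-library measurement was analysed here. Depth is therefore unknown and genotypes are not compared. The lists analysed are wild-type lists with positions only, and replicates behind them cannot be separated. Which strain and culture gave the ranking is not stated.

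In this fungus, heterochromatin forms on AT-rich DNA left by repeat-induced point mutation, a process that mutates duplicated sequence in the sexual cycle. The methyltransferase DIM-5 places trimethylation on lysine 9 of histone H3 (H3K9me3), heterochromatin protein 1 (gene hpo) binds it, and DIM-2 then methylates the DNA. Short genes in fungi encode small proteins such as metallothioneins, hydrophobins and subunits of larger complexes, and short open reading frames are among the hardest gene models to annotate. A single member has a gene symbol in the table used for names, so most members are given by locus tag.

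Short genes were concentrated in the lowest list. In the highest list they were 3 of 2433 genes (0.123%, Wilson 95% interval 0.0419 to 0.362). The 50-75% list had 7 of 2432 (0.288%, 0.139 to 0.593) and the 25-50% list 31 of 2431 (1.28%, 0.9 to 1.8). The lowest list had 438 of 2433 (18%, 16.5 to 19.6). Put the other way, 0.626% of short genes were in the highest list and 91.4% (88.6 to 93.6) in the lowest. The relation between interval length and list was already known from earlier results of these data, so these shares are a description with no test.

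**Figure D1:**
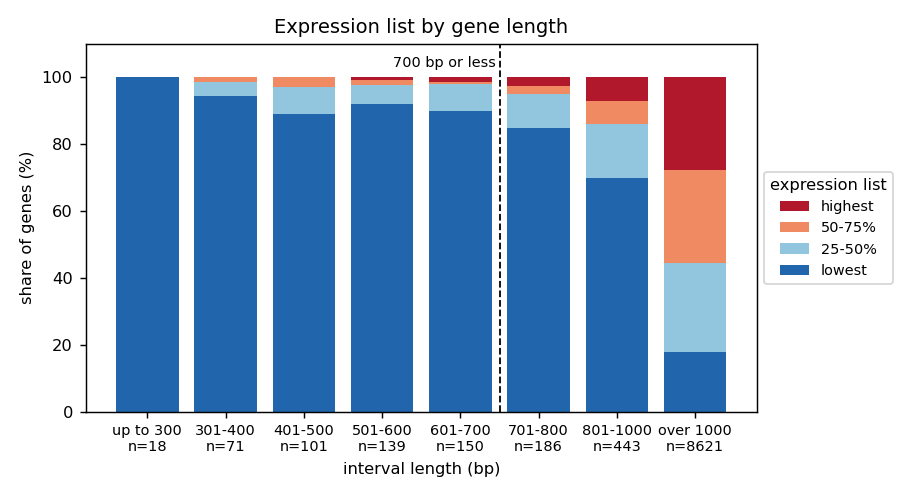
Stacked bars give the share of genes (%) in each expression list for 8 classes of interval length in bp, with the number of genes under each bar; the dashed line marks the limit of 700 bp. All 18 genes of up to 300 bp were in the lowest list, and the lowest list held 90% of genes in the last class inside the limit and 17.7% of genes over 1000 bp.

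The share in the lowest list changed little below the limit and fell above it. It was 18 of 18 genes up to 300 bp. In steps of 100 bp from there it was 67 of 71 up to 400 bp (94.4%), 90 of 101 up to 500 bp (89.1%), 128 of 139 up to 600 bp (92.1%) and 135 of 150 up to 700 bp (90%). Beyond the limit it was 158 of 186 genes of up to 800 bp (84.9%) and 309 of 443 of over 800 and up to 1000 bp (69.8%). No gene of the highest list was shorter than 574 bp. Just outside the limit, the next highest-list genes were NCU00607 (756 bp), NCU03340 (764 bp) and ccg-1, a clock-controlled gene, at 772 bp. In the lowest list the limit passed between NCU06901 (699 bp), NCU05760 (699 bp) and NCU04515 (700 bp) inside and NCU16746, NCU05824 and NCU12156, each 702 bp, outside.

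Within the lowest list, short genes were more frequent in later rows. Nothing in the files or labels explains the order of rows. The first 250 rows held 6 short genes (2.4%), rows 1251 to 1500 held 51 (20.4%) and rows 1751 to 1993 held 61 of 243 (25.1%). The last 440 rows held 169 (38.4%, 34 to 43), against 269 of the other 1993 rows (13.5%, 12.1 to 15.1). Median length fell along the same rows, to 841 bp in the last 440 rows, against 1668.5 bp in the first 250.

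**Figure D2:**
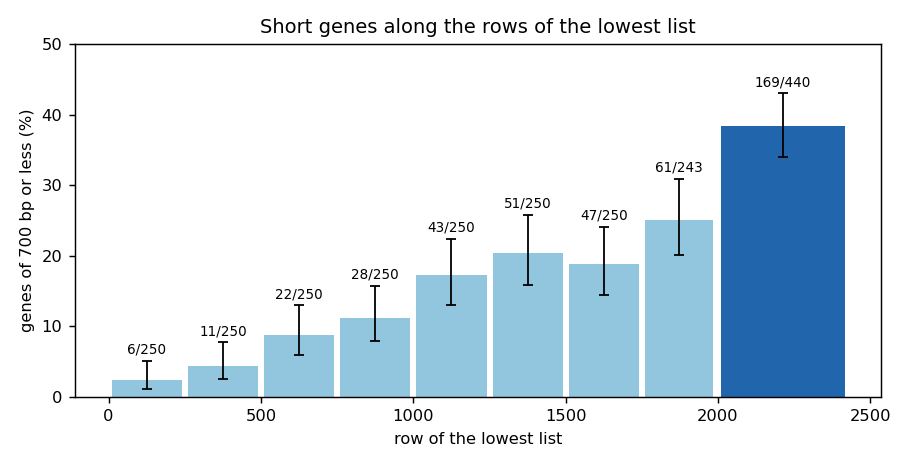
Bars give the share of genes of 700 bp or less (%) for blocks of rows of the lowest list, in file order, with Wilson 95% intervals and the counts above; the dark bar is the last 440 rows. The share was 2.4% in the first 250 rows and 38.4% in the last 440.

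Those last 440 rows ran in unbroken ascending order of locus tag number, from row 1994 to 2433. Shorter ascending runs stood before them, of 101 rows (1893 to 1993) with 24 short genes and of 129 rows (1764 to 1892) with 32. In all, 16 runs of at least 20 rows held 1127 of the lowest list's 2433 rows and 313 of its 438 short genes. In the other lists no run exceeded 7 rows. Genes within a run differed in length, from 300 to 3520 bp in the run of 129 rows and from 336 to 3482 bp in the run of 101. The lists carry no expression values, so whether the genes of a run share a value was not tested. Whether ranks allow for gene length is not stated.

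The 3 short genes of the highest list lay on 3 linkage groups, outside domains and away from the ends. The gene cmt (NCU05561), which encodes a copper metallothionein and is also listed as ccg-12, spans 662 bp on VI (1513376 to 1514037). It lay 173.6 kb from the nearest H3K9me3 domain and 1513 kb from an end. Its left neighbour NCU05563 of the lowest list was 2025 bp away, and its right neighbour NCU05560 of the 25-50% list overlapped it by 155 bp. Whether the expression of the overlapping genes was counted together was not tested.

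NCU16875 (574 bp, IV, 5054699 to 5055272) lay nearest to heterochromatin among the 3, at 16.2 kb from the domain at 5017501 to 5038500. It stood 688 bp from NCU08843 of the lowest list and 554 bp from NCU08842 of the highest list. NCU05788 (615 bp, VII, 3828325 to 3828939) lay 124.5 kb from a domain and 426.3 kb from an end. It stood 2827 bp from NCU05787, itself a short gene of the lowest list, and 1669 bp from NCU05789 of the highest list. All 3 genes thus had 1 flanking gene in the lowest list, and none had 2. With 3 genes, the highest list allows no test against the lowest, and each value below is given beside the distribution of the 438.

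The 7 short genes of the 50-75% list ranged from the edge of a domain to 188.4 kb away. NCU07344 on I (435 bp, 6297312 to 6297746) ended 155 bp before the domain at 6297901 to 6333300, with no listed gene for 21613 bp on that side. NCU16641 on III, the shortest of them at 333 bp, lay 6.22 kb from a domain. NCU08438 on II lay at 31.6 kb, and the other 4, NCU01801, NCU04879, NCU05277 and NCU11237, at 140.7, 140.8, 162.2 and 188.4 kb. For comparison, the short genes above the lowest list pooled, 41 in number, had a median distance of 33.6 kb.

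Short genes of the highest list lay at 16.2, 124.5 and 173.6 kb from a domain, and those of the lowest list at a median of 29.8 kb with an interquartile range of 10.3 to 75.2 kb. The 3 values fall inside the range of the 438, which ran from overlap to 310.2 kb, so the groups overlapped. Short genes of the other 3 lists had a geometric mean distance of 35166 bp, against 22064 bp for those of the lowest list. For these means 100 bp was added to each distance and taken off again after averaging. The difference did not pass (ratio 1.59, 95% interval 0.999 to 2.54, n = 41 and 438 genes; least squares over all listed genes with errors clustered by 500 kb window, adjusted p = 0.117 by Benjamini-Hochberg over the contrasts tested). Nor did the contrast of short with longer genes of the lowest list pass, where longer genes had a median distance of 33.5 kb (ratio of short to longer 0.909, 0.743 to 1.11, n = 438 and 1995 genes, adjusted p = 0.476 in the same fit). Without linkage group I, the difference between the other 3 lists and the lowest passed (log10 difference 0.276).

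**Figure D3:**
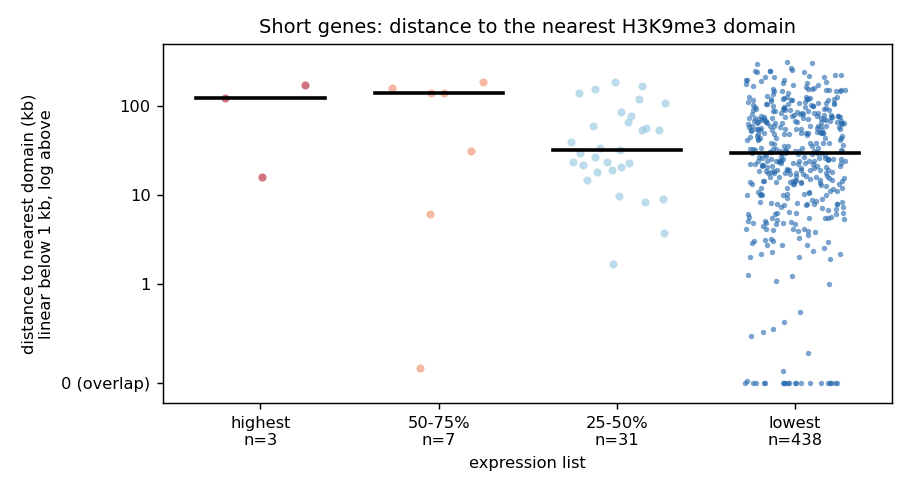
Each point is 1 short gene, plotted by its distance in kb to the nearest H3K9me3 domain (linear below 1 kb, log above; overlap at 0) for the 4 expression lists, with the median as a bar. The 3 genes of the highest list lie at 16.2 to 173.6 kb, within the range of the lowest list, and all genes at 0 are in the lowest list.

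Domains reached into 19 short genes, all in the lowest list. That is 0 of 41 short genes of the other 3 lists (Wilson upper bound 8.57%) and 19 of 438 in the lowest list (4.34%, 2.79 to 6.68), where 2.17% of all genes overlap a domain by at least 1 bp. With 0 genes in one group this difference was not tested. Against longer genes of the same list, of which 46 of 1995 overlapped a domain (2.31%), the difference of 2.03 percentage points (0.0566 to 4.01) did not pass (n = 438 and 1995 genes, clustered least squares, adjusted p = 0.112). Under 5 kb from a domain, overlap included, lay 3 of 41 short genes of the other lists (7.32%) and 65 of 438 in the lowest list (14.8%), against 11.8% of all genes.

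At least 50% of the interval lay in a domain for 12 short genes, all of the lowest list (2.74%), against 17 longer genes of that list (0.852%) and 0.534% of all genes. The share of an interval that is covered depends on the length that chose the members, so it was not tested. Of the 12, 10 were covered completely. They were spread over 5 linkage groups. On III, NCU10629 (328150 to 328634), NCU05672 (431890 to 432362), NCU00354 (3554902 to 3555368) and NCU08576 (4857482 to 4857922) lay in domains of 27, 18.3, 5.7 and 30.3 kb.

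On IV, NCU16904 (5913829 to 5914260) and NCU16905 (5937270 to 5937656) lay near the 2 edges of the same domain of 25.2 kb, at 5913301 to 5938500. NCU16905 stood in row 43 of the lowest list, in the first 250 rows, where short genes were rare. On V, NCU07228 (6191093 to 6191712) lay in a domain of 14.4 kb, and NCU17054 (6435237 to 6435860) in one of 2.1 kb at the right end, 0.34 kb from the outermost listed feature. NCU04689 on VI (391604 to 392299) was covered in a domain of 32.4 kb. NCU08585 on I (3819644 to 3819946, 303 bp) lay inside a domain of 206.1 kb, 84827 bp from NCU08579 on its left and 152736 bp from NCU09892 on its right. NCU08585 was named after its values were seen.

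NCU06955 and NCU09591 on VII marked the 2 edges of a domain of 20.1 kb (889501 to 909600), covered over 54.9% and 18.6%, with no listed gene between them. Both were named after their values were seen, as were the runs of neighbouring short genes and the members of the 50-75% list.

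Spacing differed between short genes of the lowest list and those of the other 3 lists pooled, most of them from the 25-50% list. Neighbours and flanking genes are throughout the next listed genes in order of start, so a gap can hold genes absent from the lists. Mean gaps to both neighbours were 621, 1012.5 and 2248 bp for NCU16875, cmt and NCU05788 of the highest list, with overlaps counted as 0, against a median of 1426 bp for the 438 of the lowest list (quartiles 872.9 and 2644). All 3 values lie within the range of the lowest list. Over the other 3 lists together, short genes had narrower gaps than short genes of the lowest list. Geometric means, printed with the added 100 bp taken off again, were 864 bp against 1563 bp (ratio with 100 bp added to each gap 0.58, 0.426 to 0.789, n = 41 and 438 genes, clustered least squares, adjusted p = 0.00403). The 7 genes of the 50-75% list had a median of 2070 bp and the 31 of the 25-50% list 615 bp.

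By this measure, gaps were also wider at short genes of the lowest list than at its longer genes. A short gene lying inside a longer neighbour kept part of that neighbour in its gap. NCU00143 overlapped its left neighbour by 4644 bp and had 4445 bp counted as its right gap. How far such genes widened the mean gap was not tested. Geometric means were 1563 bp for the short and 1268 bp for the longer genes (ratio with 100 bp added to each gap 1.22, 1.1 to 1.34, n = 438 and 1995 genes, clustered least squares, adjusted p = 0.00159). Gaps begin where intervals end, so the length that chose the members also enters this contrast. The narrowing of gaps above the lowest list was not shown to differ between short and longer genes (interaction ratio 0.939, 0.687 to 1.28, n = 479 short genes, adjusted p = 0.792). On untransformed gaps the difference between short and longer genes of the lowest list was 0.464 kb and did not pass. With whole linkage groups as clusters, neither gap contrast passed, and with a limit of 500 bp the contrast of the other 3 lists with the lowest did not pass (log10 difference -0.287).

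**Figure D4:**
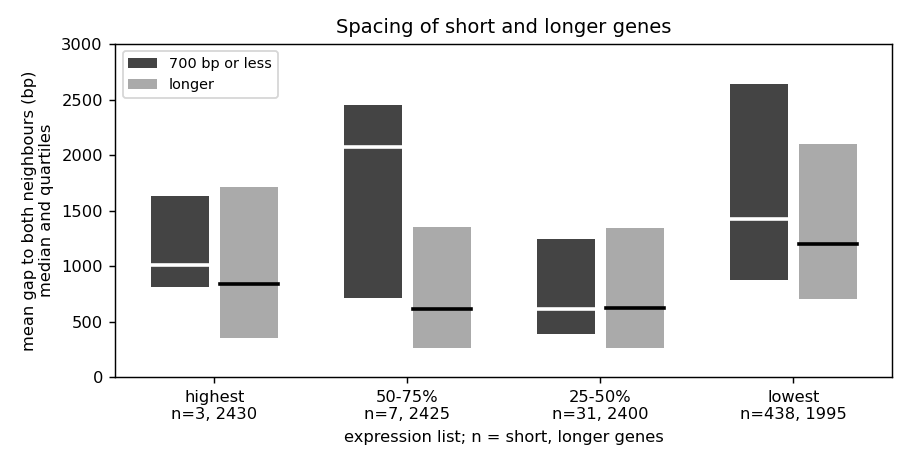
Boxes give the quartiles of the mean gap (bp) to both neighbouring listed genes, with the median as a line. Short genes (dark) stand left of longer genes (light) in each expression list, and overlaps count as 0. The median was 1012 bp for the 3 highest-list short genes and 1426 bp for lowest-list short genes, against 1202 bp for longer genes of the lowest list.

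Of the short genes, 1 of 3 highest-list genes overlapped a neighbour, as did 0 of 7 of the 50-75% list, 6 of 31 of the 25-50% list and 43 of 438 lowest-list genes (9.82%, 7.37 to 13), where 22.8% of all genes overlap a neighbour. Longer genes of the highest list overlapped a neighbour in 25.7% of cases and longer genes of the lowest list in 10.8%. Whether the ranking used strand is not stated, and any effect of overlap on the ranks was not tested.

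Flanking genes of the lowest list were rarer beside short genes of the other 3 lists pooled than beside those of the lowest list, with most of the pooled genes from the 25-50% list. Of the 6 genes flanking the 3 short genes of the highest list, 2 were in the highest list, 1 in the 25-50% list and 3 in the lowest (50%). For the 50-75% list 6 of 14 flanking genes were in the lowest list (42.9%), and for the 25-50% list 13 of 62 (21%). Of 875 genes flanking short genes of the lowest list, the highest list supplied 174 (19.9%), the 50-75% list 134 (15.3%), the 25-50% list 152 (17.4%) and the lowest 415 (47.4%, 44.1 to 50.7). Over the other 3 lists, 22 of 82 flanking genes were in the lowest list (26.8%), near the 25% over all genes, so that the mean share per gene was 20.7 percentage points under that in the lowest list (-30.6 to -10.8, n = 41 and 438 genes, clustered least squares, adjusted p = 0.00125). The same contrast did not pass with a limit of 500 bp or with linkage groups as clusters. Longer genes had 18.9% in the other 3 lists and 42.1% in the lowest list, and the contrast was not shown to differ between short and longer genes (interaction 2.55 points, -6.54 to 11.6, n = 479 short genes, adjusted p = 0.733).

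**Figure D5:**
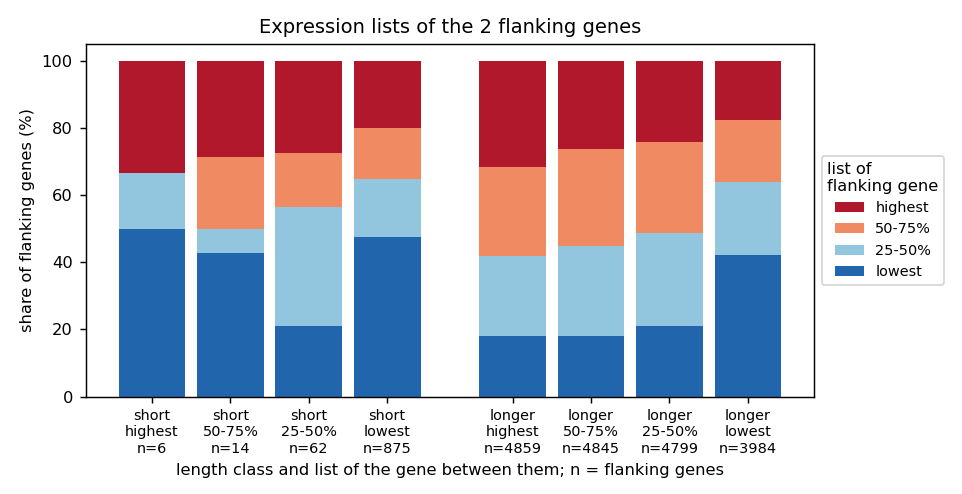
Stacked bars give the share (%) of flanking genes in each expression list, for short genes (left) and longer genes (right) of each list, with the number of flanking genes below. Lowest-list genes made up 47.4% of the genes flanking short lowest-list genes and 42.1% of those flanking longer ones; the bar of the short highest-list genes rests on 6 flanking genes.

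Neighbours were also compared between short and longer genes of the lowest list. The mean share of flanking genes in the lowest list was 47.5% against 42.1%, a difference of 5.36 points (1.13 to 9.59) that did not pass (n = 438 and 1995 genes, clustered least squares, adjusted p = 0.0527). For flanking genes in the highest list the means were 19.9% and 17.6% (difference 2.24 points, -1.37 to 5.85, n = 438 and 1995 genes, adjusted p = 0.337). Neighbours that both belonged to the lowest list surrounded 129 of 437 short genes (29.5%) and 449 of 1989 longer genes (22.6%), against 9.46% of all genes. Neighbours that both belonged to the highest list surrounded 29 of 437 (6.64%, 4.66 to 9.37) and 75 of 1989 (3.77%, 3.02 to 4.7), against 7.08% of all genes, so the share of short genes was near that of all genes. The shares with both neighbours in 1 list were not tested.

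The 29 short genes of the lowest list between highest-list neighbours included closely packed ones. NCU03165 on I (4770703 to 4771344, 642 bp) overlapped both neighbours, NCU03164 by 133 bp and NCU03166 by 98 bp. NCU03167 (4773178 to 4773693), another short gene of the lowest list, stood 20 bp beyond NCU03166, so that this highest-list gene lay between 2 short genes of the lowest list. NCU02953 on I overlapped its right neighbour by 441 bp and lay 310.2 kb from a domain, the farthest of all short genes. The others with the smallest mean gaps were NCU02251, NCU01536, NCU16831, NCU00491, NCU00485, NCU16763 and NCU12119. No short gene of the highest list had both neighbours in the lowest list.

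Some short genes stood side by side in the order of listed genes. A flanking gene was itself short in 104 of 875 cases for short genes of the lowest list (11.9%, 9.91 to 14.2) and in 333 of 3984 for its longer genes (8.36%, 7.54 to 9.26), against 4.92% over all genes. The difference was not tested. Of the 479 short genes, 376 stood singly, 84 in 42 pairs, 15 in 5 runs of 3 and 4 in 1 run. These numbers of pairs and runs were not tested either. The run of 4, NCU08246 to NCU08249 on III (4769937 to 4776607, 6.67 kb), lay 51.3 kb from a domain. It belongs to the longest run of lowest-list genes in the genome, 48 genes at 4725647 to 4878077. Of these 15 were short (31.2%), against 18% of the lowest list.

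All runs of 3 were of the lowest list, which held 91.4% of all short genes. They were NCU08080 to NCU08081 on I (195021 to 198497), NCU16705 to NCU08576 on III (4825346 to 4857922), and 3 on V, NCU09685 to NCU16940 (844178 to 848306), NCU09950 to NCU09952 (6029831 to 6032868) and NCU07217 to NCU07215 (6220001 to 6224199). The run on III ended in NCU08576, which lay in a domain, and the run on I lay 1.004 kb from one.

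Every linkage group held short genes. Their share ran from 4.01% on I (94 of 2346 genes, 3.29 to 4.88) to 5.64% on VII (59 of 1047, 4.39 to 7.2). Of 83 windows of 500 kb, 2 held none and the median was 5. The fullest, on III at 4500624 to 5000429, held 20 short genes among 135. That window takes in the run of 48 lowest-list genes given above. The median distance of short genes to a domain was 58.5 kb on I and 56.9 kb on IV, and 21.3 to 24.5 kb on III, V, VI and VII.

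Positions relative to the linkage group ends were compared next. Within 100 kb of an end, taken as the outermost listed feature, lay 0 of 3 short genes of the highest list, 0 of 7 of the 50-75% list, 4 of 31 of the 25-50% list and 7 of 438 of the lowest list (1.6%, 0.776 to 3.26), against 98 of 1995 longer genes of the lowest list (4.91%, 4.05 to 5.95) and 3.55% of all genes. By distance, short genes of the lowest list lay 1.13 times as far from an end as its longer genes (1.01 to 1.26), which did not pass (n = 438 and 1995 genes, clustered least squares, adjusted p = 0.105). As shares within 100 kb or 200 kb the difference passed, at -0.0331 and -0.0597 as fractions. The lowest-list members nearest to an end were NCU17054, NCU07151 and NCU07163 on V, at 0.34, 22.6 and 55.6 kb, and NCU16905 and NCU16904 on IV, at 62.9 and 86.3 kb. NCU09619 of the 25-50% list, on II, lay at 40.5 kb and was named after its value was seen.

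Interval lengths that are multiples of 3 were counted as a description, with no test, since they are a property of the length that chose the members. A coding sequence without introns or untranslated regions has such a length. Such a length was found for 1 of 3 highest-list short genes, 3 of 7 of the 50-75% list, 12 of 31 of the 25-50% list and 225 of 438 lowest-list short genes (51.4%, 46.7 to 56), against 35.6% of all genes. Among longer genes of the lowest list the share was 41.2% (39 to 43.3). The share in the lowest list was 16 of 18 up to 300 bp, 50 of 67 over 300 and up to 400 bp (74.6%) and 57 of 135 over 600 and up to 700 bp (42.2%).

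The share also differed between the last 440 rows of the lowest list and its other rows. In the last 440 rows 60.4% of short genes had such a length, and in the other rows 45.7%. The short genes of the last 440 rows were themselves shorter, with a median of 502 bp against 559 bp. The part of length in this difference was not tested. Median gaps were close, at 1424 bp for short genes with such a length and 1428 bp for the other short genes of the lowest list.

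The 8 shortest members, all of the lowest list, had lengths of 210 to 246 bp, each a multiple of 3, and 7 of them stood in the last 440 rows. NCU10730 (210 bp, II, 3564980 to 3565189) had as its right neighbour eas, the hydrophobin gene of the highest list, at 5715 bp. NCU05529 and NCU05528 on VI, of 237 and 240 bp, were adjacent at 797 bp. NCU08089 (213 bp), NCU02465 (234 bp), NCU05962 (240 bp), NCU02081 (246 bp) and NCU06641 (246 bp) lay between 4.8 and 76.8 kb from a domain.

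Locus tags of NCU10000 and above, taken here as later gene models without a check, were counted in each list. They made up 1 of 3 short genes of the highest list (NCU16875), 2 of 7 of the 50-75% list, 9 of 31 of the 25-50% list and 92 of 438 of the lowest list (21%, 17.5 to 25.1), against 9.81% of all genes. Longer genes of the lowest list had 17%, and the difference of 3.96 points (-0.338 to 8.26) did not pass (n = 438 and 1995 genes, clustered least squares, adjusted p = 0.147).

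Among short genes of the lowest list, median distance to domains also differed between the last 440 rows and the other rows. The 169 short genes of the last 440 rows lay at a median of 44.5 kb from a domain, and the other 269 at 24.1 kb. For longer genes of the list the medians were 42.1 and 32.8 kb. With short and longer genes together, the median distance did not rise steadily along the blocks of rows. It was 39.2 kb in the first 250 rows and 42.9 kb in the last 440, with its smallest value, 23.7 kb, in a block between them. Completely covered genes were 2 of the 169 and 8 of the 269. The rows were grouped after their order was seen, so these values have no test.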

How the data were processed

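The authors deposited positions, without measured values, as 4 gene lists ranked by wild-type expression and 1 list of H3K9me3 domains; the deposited score is 0 in every gene row and was not used. Tools were Bowtie2, HOMER, SICER and deepTools, per the submitters' processing notes; no source used here states their settings, or where the ranking came from and in what unit. List names were read as percentiles that rise with expression. Starts were taken as zero-based and are printed one-based; 10 empty domain rows were skipped, and domain ends were counted as included, so that 337 of 346 domains have lengths in multiples of 300 bp. Names come from a table for NC12 (RefSeq): 9490 genes matched by position, 238 on VI between 1851685 and 2769626 by mirrored position, and 1 not; all 479 short genes matched, 5 of them mirrored. Coordinates are the files' own.

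Members and lists were chosen with earlier results of these data known. Distances, gaps and shares were fitted by least squares over all listed genes on length class and list, with errors clustered in 83 windows of 500 kb (t distribution) and 100 bp added before log10; intervals are 95%. Genes are not replicates. The p-values are for differences between groups of genes, with errors from variation between windows, and carry no variation between cultures. The planned contrast of highest minus lowest list rests on 3 genes and has no p; contrasts with the other 3 lists pooled, with longer genes and on multiples of 3 were added after seeing the data. Contrasts on multiples of 3 stayed among those adjusted for, but the measure derives from the length that chose the members and is described with no test. Of 27 contrasts, 23 had at least 5 genes with and without the property in each group and were tested, with Benjamini-Hochberg adjustment over them and a threshold of 0.05. The fit was run on simulated normal values that were correlated between neighbouring genes. Yes/no measures, shares of flanking genes and skewed gaps were not simulated. Named genes followed a rule by length, domain bases, neighbours and ends, with exceptions said. Orientation was not analysed, since strand was not used here. Software was Python 3.11.15, numpy 2.4.6, pandas 2.3.3 and scipy 1.17.1.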

Additional observations from a re-analysis of the deposited data

Results flagged for a closer look

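Later locus tags, NCU10000 and above, related to expression list differently in short and in longer genes. Among short genes they made up 12 of 41 in the other 3 lists (29.3%) and 92 of 438 in the lowest list (21%). Among longer genes they made up 510 of 7254 in the other 3 lists (7.03%) and 340 of 1995 in the lowest list (17%). The difference of these differences was 18.3 percentage points (95% interval 4.97 to 31.6, n = 479 short genes, clustered least squares, adjusted p = 0.0355), and it no longer passed under 9 of the 19 alternatives run. Only 12 genes carry the first share, and the cause was not tested.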

How the results depend on the processing

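Of 1004 alternatives, 967 counted as unchanged, and 72 of these changed sign, none of them for a result that passed in either setting. Tested contrasts counted so if they kept their side of the threshold. Contrasts untested in a setting counted so unless they passed in the other. Values here are log10 differences or fractions. For highest minus lowest list and its interaction, 384 of 386 untested values shifted by under 1 SD of single lowest-list short genes. Of the 386, 41 changed sign. That SD is wide, at 0.7645 for log10 distance to a domain. There the difference was 0.504 and ran from -0.159 to 0.843 across alternatives. At 600 bp the difference in late tags was 0.782 and its interaction 0.909. The share of short genes in the lowest list was 81.7% at 1000 bp. Gaps no longer passed for the other 3 lists minus the lowest at 500 bp (-0.287) or with linkage groups as clusters (-0.237), nor for short minus longer lowest-list genes with those clusters (0.0848) or in untransformed kb (0.464). Flanks in the lowest list, other 3 lists minus lowest, no longer passed at 500 bp (-0.174) or with those clusters (-0.207); short minus longer they passed with 200 kb windows (0.0536), linkage group as a covariate (0.0551), and without the inverted segment (0.0547), II (0.0639) or VII (0.0637). Multiples of 3, given with no test, differed by 0.102 with those clusters and 0.0524 without the last 440 rows for short minus longer genes, and by -0.172 at 800 bp and -0.182 at 1000 bp for the other 3 lists minus the lowest. Late tags, short minus longer, passed at 800 bp (0.0582) and 1000 bp (0.0797). The interaction in late tags no longer passed at 500 bp (0.0922, too few genes for a test) or 600 bp (0.152), with 1000 kb windows or linkage groups as clusters (0.183 each), without III (0.132), IV (0.179) or V (0.166), without the last 440 rows (0.166) or without multiples of 3 (0.187). Interactions passed at 1000 bp for gaps (-0.123) and distance to an end (-0.126); that of multiples of 3 was -0.118. Distance to a domain, other 3 lists minus lowest, passed without I (0.276). Distance to an end, short minus longer, passed without V (0.0704), without genes overlapping a domain (0.0627), and as shares within 100 kb (-0.0331) or 200 kb (-0.0597). Apart from the 500 bp value, the causes were not tested. Domain overlap without overlapping genes and late tags among early tags can give no value; orientation was not run. No paired analysis was possible because the lists hold no values per library. Depth behind the ranking is unknown.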

Other observations

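RNA genes of the RefSeq table flank some short genes in NC12 order. A tRNA gene was next to 2 of 41 short genes of the other 3 lists (4.88%) and 29 of 438 short genes of the lowest list (6.62%, with a 95% Wilson interval of 4.65 to 9.35), against 679 of 9728 genes overall (6.98%). A gene classed as ncRNA, apart from tRNA and rRNA, was next to 2 of 41 (4.88%) and 20 of 438 (4.57%, 2.98 to 6.95), against 317 of 9728 (3.26%). An rRNA gene was next to 1 of 41 (2.44%) and 3 of 438 (0.685%, 0.233 to 1.99), against 134 of 9728 (1.38%). These shares were not tested.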
